A study of Mus musculus with 6 samples.

Results

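Hif1a and 9 genes of the cellular response to low oxygen (Arnt, Egln1, Egln3, Vegfa, Adm, Bnip3, Ddit4, Kdm3a and P4ha1) were followed in activated CD4 T cells with and without miR-155. Every probe set that GEO's annotation of the platform assigns to 1 of these symbols was taken, which gave 18 of the 22690 probe sets on the array. The 10 genes are among 12393 named genes, and all 10 were among the 9295 that passed the filter on dim genes. The cells came from spleen and lymph nodes of 3 miR-155 KO mice of a published knockout line and of 3 WT mice, all of strain C57BL/6, and neither the age of the mice nor the construction of the allele was used here. Cells of both genotypes were pulled out with CD4 magnetic beads and activated over 3 days by CD3 and CD28 antibodies (1 µg/mL) together with interleukin 2 (20 U/mL), and the series description gives 1 mouse per array. Cultures at low oxygen and unstimulated cells were not analysed here.

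HIF-1 is a transcription factor made of an oxygen-labile subunit, encoded by Hif1a, and a stable partner, encoded by Arnt. While oxygen is present, prolyl hydroxylases such as those encoded by Egln1 and Egln3 mark the Hif1a protein for destruction through the von Hippel-Lindau protein, so control acts largely on the protein, which an array of transcripts does not read. In activated T cells the factor also accumulates after signals from the antigen receptor and through mTOR, and it drives glycolysis and shifts the balance between Th17 and regulatory T cells. MiR-155 is induced by activation of T cells, and the Hif1a transcript has been reported as a target of it. The microRNA missing from the KO cells is shown because its seed, bases 2 to 8 in capitals, is the stretch that pairs with most targets. It lies at chr16:84714143-84714165 on the plus strand (RefSeq, GRCm38.p6).
mmu-miR-155-5p: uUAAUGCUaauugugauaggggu

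Values are log2 units as deposited, differences are KO minus WT, and genes are not ranked by level; the mean of the dimmest gene that passed the filter, 4.72, marks where values are near the low end. The array medians lay between 6.45 and 6.49. Mir155hg, the host transcript of miR-155, measured 3.51, 3.89 and 4.45 on the KO arrays, against 7.69, 6.59 and 8.21 on the WT arrays, so each array lay on the side of its label. Over the 6 arrays Cd4 lay between 8.83 and 9.25 and Cd3e between 9.86 and 10.88. The CD8 T cell markers were not absent, with Cd8a between 5.69 and 6.10, Cd8b1 between 7.23 and 7.73, Crtam between 7.01 and 8.25, and Runx3 at 7.95 on KO replicate 1 and 6.33 to 6.88 elsewhere. Of the 9 CD4 T cell markers 2 had an unadjusted limma p under 0.05, both higher in KO (Cd28 by 0.67 and Zbtb7b by 0.48), beside 3.57% of all genes. KO replicate 1 stood apart from the rest, with a score of -41.3 on the first principal component (61.9% of the variance), against -14.6 to 26.1 on the other arrays. In both genotypes replicate 1 had high Xist without Y-linked transcripts, replicate 2 had Y-linked transcripts with low Xist, and replicate 3 had both (Xist 12.59 and Eif2s3y 10.05 on the KO array, and 12.64 and 10.21 on the WT array). Neither replicate 3 array thus read as 1 sex, and whether each holds RNA of a single mouse was not tested. Because KO replicate 1 stands apart, differences are also given without it.

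Hif1a (chr12:73901324-73947554, as all gene spans here in RefSeq, GRCm38.p6) was the member with the clearest separation between genotypes. Its brightest probe set, 1427418_a_at, read 13.25, 13.32 and 13.41 in KO, against 12.78, 12.77 and 12.97 in WT. All KO arrays lay above all WT arrays, and KO replicate 1 was the lowest of the KO arrays. The means were 13.33 ± 0.081 in KO and 12.84 ± 0.11 in WT (SD, n = 3 each), a difference of 0.49 ± 0.12 (SE), or 1.40-fold, with a 95% interval of 0.21 to 0.77. The unadjusted limma p was 0.00455, but the limma adjusted p over all genes was 0.631, so the difference did not pass. Without KO replicate 1 the difference was 0.53 (limma adjusted p = 0.843).

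The other 3 probe sets of Hif1a also differed above 0. Probe set 1416035_at read 11.07, 11.49 and 11.70 in KO, against 10.68, 10.96 and 11.00 in WT, a difference of 0.53 ± 0.19 (SE) that was 0.71 without KO replicate 1. Probe set 1448183_a_at read 8.41, 7.07 and 7.25 in KO, against 6.32, 6.51 and 7.06 in WT, a difference of 0.95 that was 0.53 without KO replicate 1. In both the genotypes did not overlap, although on 1448183_a_at KO replicate 2 lay just above WT replicate 3. The dimmest, 1431981_at, read 5.46, 4.70 and 4.65 in KO, against 4.59, 4.36 and 4.73 in WT, and here the genotypes overlapped. Its difference of 0.37 was 0.11 without KO replicate 1. Hif1a had 3 of 4 probe sets with all KO arrays on the upper side, where 5.89% of all 22626 probe sets tested did so. The 4 read 1 gene on the same arrays, so they are not independent observations. In the fit over all probe sets the limma adjusted p values of the 4 were between 0.705 and 0.711. KO replicate 1 was highest on the 2 dimmer probe sets and lowest among KO arrays on the 2 brighter ones, so the probe sets did not agree on the order of the KO arrays.

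**Figure D1:**
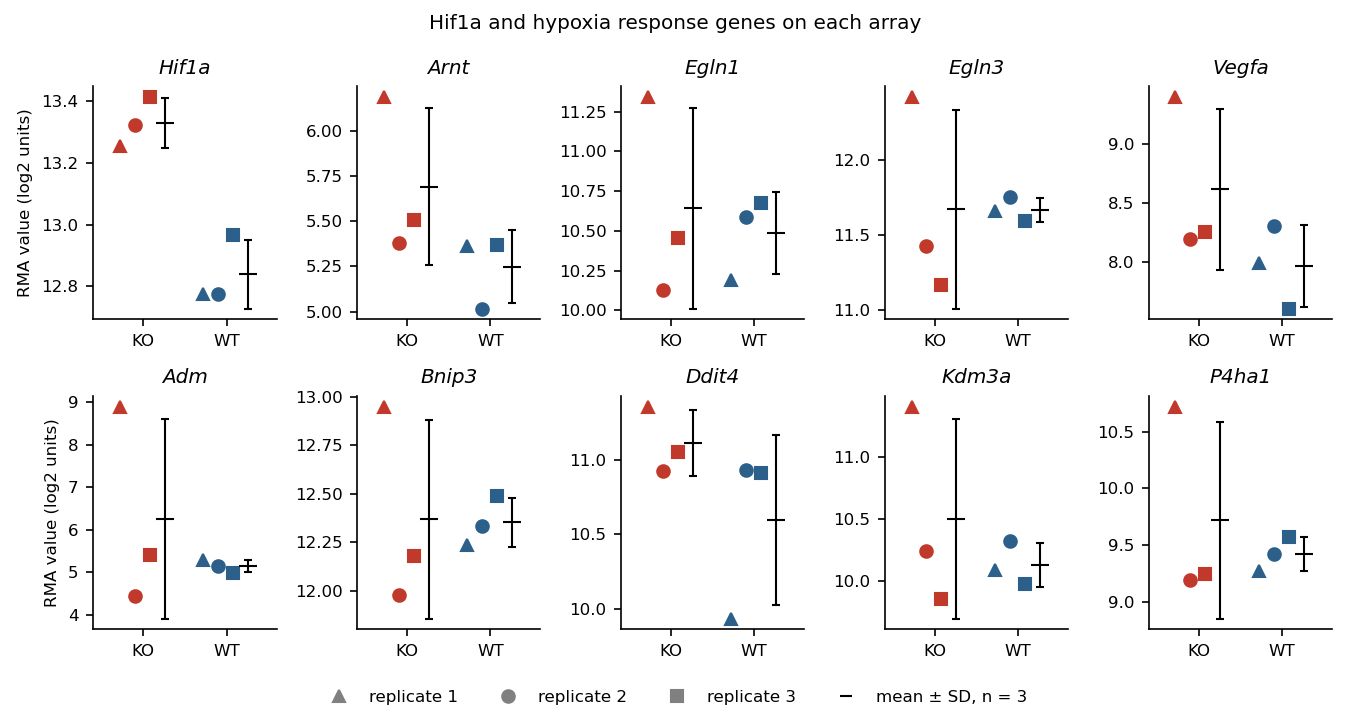
RMA values (log2 units, vertical axes, each with its own range) of the probe set used for each of the 10 genes, with KO arrays left and WT arrays right. Symbols mark the replicate number and bars the mean ± SD (n = 3). Hif1a separates the genotypes at 13.25 to 13.41 in KO and 12.77 to 12.97 in WT, while in the other genes KO replicate 1 (red triangle) is the highest array.

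Arnt (chr3:95434367-95497240), the partner subunit, was dim. Its brighter probe set read 6.19, 5.38 and 5.51 in KO, against 5.36, 5.02 and 5.37 in WT. The genotypes did not overlap, but KO replicate 2 and WT replicate 3 differed by less than the spread between replicates. The difference was 0.44 ± 0.24 (SE, limma adjusted p = 0.631) and 0.20 without KO replicate 1. The second probe set lay between 4.33 and 4.77 on all arrays, near the mean of the dimmest gene tested, and differed by 0.07. Hif1a and Arnt were the 2 of 10 members with all KO arrays above all WT arrays, where 5.86% of the 9295 genes were so placed.

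The prolyl hydroxylase genes, which are themselves induced by HIF-1 and so form a feedback loop, overlapped between genotypes. Egln1 (chr8:124908587-124949254), the main oxygen sensor of the pathway, read 11.35, 10.13 and 10.45 in KO, against 10.19, 10.59 and 10.67 in WT. KO replicate 1 was highest and KO replicate 2 lowest, and the difference was 0.16, with a 95% interval of -0.61 to 0.93. Its second probe set read 11.25, 9.52 and 10.24 in KO, against 9.91, 10.06 and 10.51 in WT, with the same array highest and the same one lowest. The differences were -0.20 and -0.28 without KO replicate 1. Egln3 (chr12:54178981-54203874), a hydroxylase strongly induced by low oxygen, read 12.42, 11.43 and 11.16 in KO, against 11.66, 11.75 and 11.59 in WT. The other 2 KO arrays lay below every WT array, on the opposite side from KO replicate 1, and the means came out equal, with a difference of 0.003 (-0.75 to 0.76). Without KO replicate 1, Egln3 differed by -0.37 ± 0.14 (SE, limma adjusted p = 0.843). The second Egln3 probe set read 10.20, 9.48 and 9.14 in KO, against 9.36, 9.69 and 9.37 in WT, and differed by -0.16 without KO replicate 1.

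Among the secreted products, Adm (chr7:110627657-110629820), which encodes the vasodilator peptide adrenomedullin, had the widest range of the members. It read 8.89, 4.45 and 5.41 in KO, against 5.28, 5.15 and 4.99 in WT. On 5 of the arrays it was near the mean of the dimmest gene tested. The deposited value of KO replicate 1 was 11.2-fold above the next highest, a ratio to a value near the low end, where RMA values are compressed. The KO mean of 6.25 ± 2.34 therefore stands for no KO array, against 5.14 ± 0.14 in WT (SD, n = 3 each), and the difference of 1.11 had a 95% interval of -1.42 to 3.65 and was -0.21 without KO replicate 1. Vegfa (chr17:46016993-46032377), the vascular endothelial growth factor gene, read 9.40, 8.20 and 8.25 in KO, against 7.99, 8.31 and 7.61 in WT with its brighter probe set. The second read 9.03, 7.29 and 7.01 in KO, against 7.14, 7.28 and 6.90 in WT. KO replicate 1 was 2.14-fold and 3.34-fold above the next highest array, and the other KO arrays lay within or close to the WT range. The differences were 0.65 (limma adjusted p = 0.631) and 0.67, and 0.26 and 0.04 without KO replicate 1.

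Bnip3 (chr7:138890836-138909506), whose product acts in mitophagy and cell death, read 12.95, 11.98 and 12.18 in KO, against 12.23, 12.34 and 12.49 in WT. As for Egln3, KO replicate 1 was above and the other 2 KO arrays below all WT arrays, and the difference was 0.02, or -0.27 without that array. Ddit4 (chr10:59949675-59951770), which encodes the mTORC1 inhibitor REDD1, read 11.36, 10.93 and 11.05 in KO, against 9.93, 10.93 and 10.91 in WT. Here WT replicate 1 was the array apart, about 1 log2 unit below all others. The difference of 0.52 (-0.18 to 1.22) was 0.19 without WT replicate 1 and 0.40 without KO replicate 1.

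Kdm3a (chr6:71588970-71632990), a histone H3 lysine 9 demethylase gene, read 11.41, 10.25 and 9.86 in KO, against 10.09, 10.33 and 9.98 in WT. KO replicate 1 was 2.12-fold above the next array, and the difference of 0.37 became -0.08 without it. P4ha1 (chr10:59323197-59373304), a subunit of the collagen prolyl 4-hydroxylase, read 10.72, 9.20 and 9.24 in KO, against 9.27, 9.42 and 9.57 in WT. Its second probe set read 7.75, 6.11 and 6.48 in KO, against 6.23, 6.50 and 6.50 in WT. In both KO replicate 1 was more than 1 log2 unit above the next array, at 2.22-fold and 2.37-fold, and the differences of 0.30 and 0.37 became -0.20 and -0.12 without it.

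**Figure D2:**
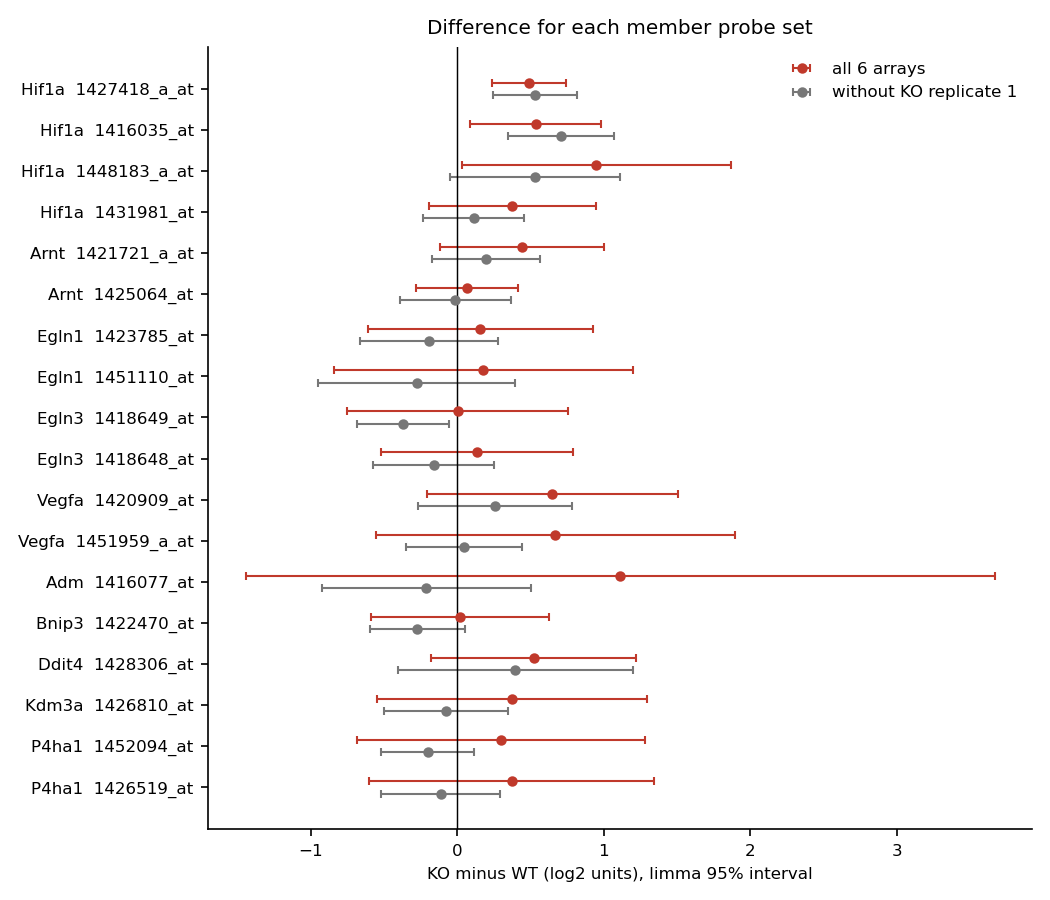
KO minus WT difference (log2 units, horizontal axis) of each of the 18 probe sets, with its limma 95% interval, over all 6 arrays (red) and without KO replicate 1 (grey). The brightest Hif1a probe set stays at 0.49 and 0.53, while those of Egln1, Egln3, Adm, Bnip3, Kdm3a and P4ha1 move below 0 without that array.

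No member passed the test. At a limma adjusted p under 0.05, 0 of 9295 genes (0%) were called, and 0.545 was the smallest value, while 691 had an unadjusted limma p under 0.05 and 554 in a test without moderation. Mir155hg, with a difference of -3.55, was itself at a limma adjusted p of 0.545. A gene that did not pass is therefore not shown to be unchanged. Hif1a was the 1 member of 10 with an unadjusted p under 0.05 and higher in KO, a class that held 3.57% of all genes, and 0 members were in the lower class, which held 3.86%. The exact two-sided permutation p was 0.1 for Hif1a and for Arnt, the smallest that 3 against 3 arrays can give, and between 0.2 and 1 for the others. The 10 differences were all above 0, with a median of 0.41, beside a median of -0.004 over all genes, of which 4575 were above 0. Without KO replicate 1, 4 of the 10 were above 0 and the median was -0.14, beside -0.012 over all genes. The sign of the median thus rested on KO replicate 1.

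KO replicate 1 was the highest of the 6 arrays in 9 of the 10 genes, with Hif1a the exception, where it was so in 25.8% of all genes. In 4 members (Adm, P4ha1, Vegfa and Kdm3a) it was at least 1 log2 unit above every other array, which held for 1.38% of all genes, or 128. By the height of that gap in the deposited values Adm ranked 3, P4ha1 83, Vegfa 104 and Kdm3a 110 among the 9295 genes. On no other array was a member highest by that margin. The centred mean of the 8 genes downstream of the factor was 1.15 on KO replicate 1, -0.35 and -0.21 on the other KO arrays, against -0.33, -0.06 and -0.19 in WT. Without KO replicate 1, the remaining KO arrays both lay above all WT arrays in 2 members, Hif1a and Arnt, beside 10.5% of all genes. Both lay below all WT arrays in 3, Egln3, Bnip3 and P4ha1, beside 11.4% of all genes. For P4ha1 the margin was small, with KO replicate 3 at 9.24 and WT replicate 1 at 9.27. These counts use the brightest probe set of each gene. Without KO replicate 1 the genotypes overlapped on the second probe sets of Egln3, P4ha1 and Arnt and on the dimmest of Hif1a.

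**Figure D3:**
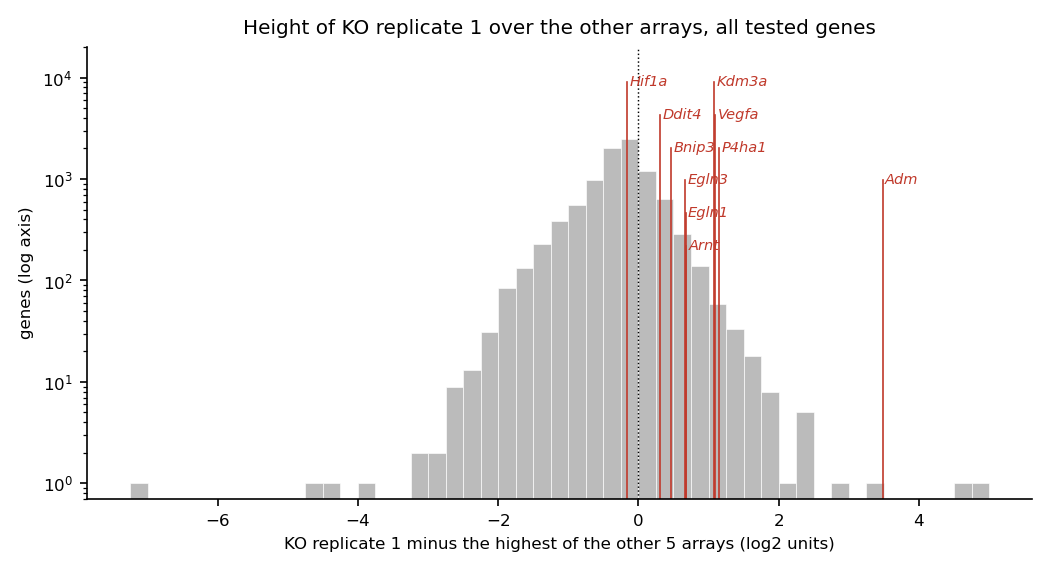
Number of genes (log axis) by the value of KO replicate 1 minus the highest of the other 5 arrays (log2 units), over the 9295 genes tested. Red lines mark the 10 members, of which Adm stands at 3.48 and Hif1a, at -0.16, is the only one left of 0.

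HIF-1 binds hypoxia response elements, whose core reads ACGTG or GCGTG. Both were searched on both strands in RefSeq promoter windows (GRCm38.p6), 250 bases before to 50 after each annotated start. All 10 members had a window, 13 in all, and each member had at least 1 core in 1 of its windows. Such a core was also present for 46.7% of all 27025 genes with a promoter, and for 61.6% of the 9883 of them that are on the array. The Bnip3 window held 5 cores, those of Hif1a and P4ha1 held 3 each, and 10.2% of all genes, or 16.1% of those on the array, had a window with 3 or more. The palindrome CACGTG, which also is the E-box of other factors, counts as a core on each strand and occurred once each in the Bnip3 and Hif1a windows. One of the 2 Vegfa windows and 2 of the 3 Kdm3a windows held no core. For Vegfa the window without a core was the one at the outer start of the gene (chr17:46032328-46032627). Its cores lay only in the window of a start inside the gene span (chr17:46025114-46025413).

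**Figure D4:**
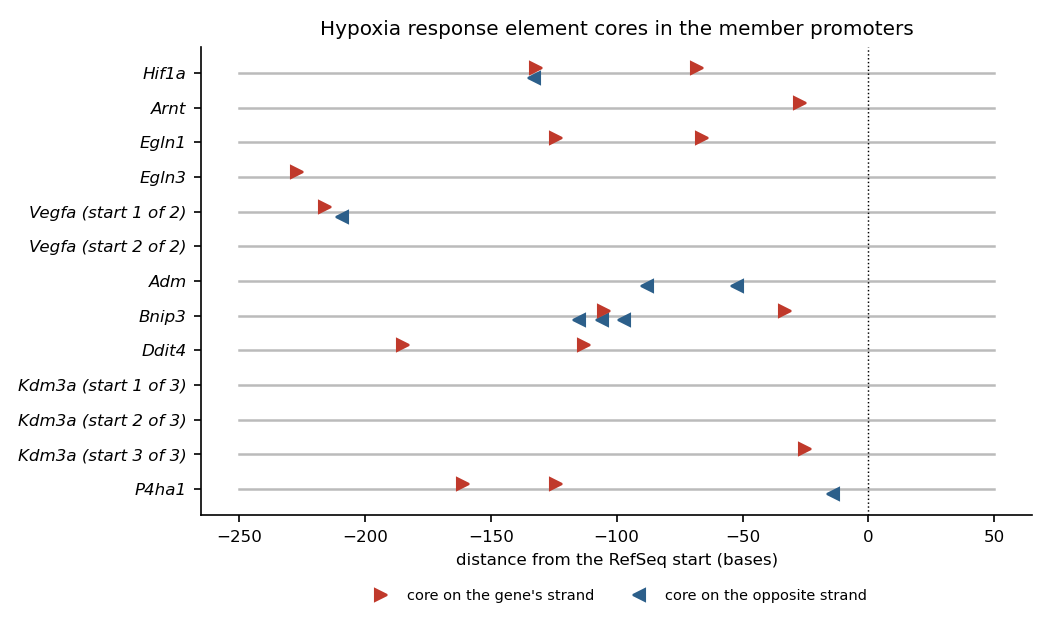
Position of each core (horizontal axis, bases from the RefSeq start) in the 13 promoter windows of the 10 genes, with triangles pointing right on the gene's strand and left on the opposite strand. Bnip3 has 5 cores, all upstream of the start, and Egln3 has 1, far from it.

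The promoters of Adm, P4ha1 and Bnip3 are shown because the first 2 had the greatest gaps between KO replicate 1 and the other arrays and Bnip3 the most cores. They lie at chr7:110627407-110627706 (plus strand), chr10:59323046-59323345 (plus strand) and chr7:138909457-138909756 (minus strand), and capitals mark the cores, with those on the opposite strand reading CACGT or CACGC.
Adm: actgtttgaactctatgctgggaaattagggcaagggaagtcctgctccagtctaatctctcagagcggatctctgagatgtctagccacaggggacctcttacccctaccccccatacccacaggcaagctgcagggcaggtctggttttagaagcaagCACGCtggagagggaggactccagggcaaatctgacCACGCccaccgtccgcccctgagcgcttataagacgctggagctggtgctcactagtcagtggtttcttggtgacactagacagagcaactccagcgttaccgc
P4ha1: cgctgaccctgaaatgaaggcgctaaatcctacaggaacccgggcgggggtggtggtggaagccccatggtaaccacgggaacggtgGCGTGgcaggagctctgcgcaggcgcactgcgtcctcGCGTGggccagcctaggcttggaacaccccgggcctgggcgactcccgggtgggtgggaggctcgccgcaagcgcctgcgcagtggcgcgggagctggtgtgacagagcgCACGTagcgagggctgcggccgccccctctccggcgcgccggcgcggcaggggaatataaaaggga
Bnip3: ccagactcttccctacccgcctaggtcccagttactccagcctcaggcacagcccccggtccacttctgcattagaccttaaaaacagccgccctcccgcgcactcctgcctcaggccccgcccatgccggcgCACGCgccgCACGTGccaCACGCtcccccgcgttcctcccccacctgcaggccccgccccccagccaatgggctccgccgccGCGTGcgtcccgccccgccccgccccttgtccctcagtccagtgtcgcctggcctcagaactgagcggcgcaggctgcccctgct

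In the rest of the oxygen-sensing machinery, 2 of 12 tested genes lay higher in KO on every array, beside 5.86% of all genes. One lay lower on every KO array, beside 6.92%. Without KO replicate 1 the 2 genes higher in KO, Cited2 and Epas1, kept their direction, at like size for Cited2 and smaller for Epas1. Of the 12, 0 passed, and 2 had an unadjusted limma p under 0.05, both higher in KO, beside 3.57% of all genes. The median difference was 0.03, and the 4 genes of smallest p are named. Cited2, a feedback inhibitor that competes with the Hif1a protein for its coactivators, read 10.48, 10.10 and 10.73 in KO, against 9.17, 9.55 and 9.69 in WT. Its difference was 0.97 ± 0.21 (SE, limma adjusted p = 0.631), 0.94 without KO replicate 1, and 1.15 on a second probe set. Epas1, which encodes the related oxygen-labile subunit HIF-2 alpha, read 7.45, 6.65 and 7.03 in KO, against 5.85, 5.92 and 6.41 in WT, a difference of 0.98 (limma adjusted p = 0.631) that was 0.78 without KO replicate 1. Hif3a, a family member with inhibitory isoforms, differed by 0.34, and by 0.09 without that array. On its other probe sets the differences were 0.13 and 0.02. Eloc, the elongin C gene of the von Hippel-Lindau ubiquitin ligase, was below WT on all KO arrays at -0.17, and at -0.17 also without KO replicate 1, a difference of that direction on all 4 of its probe sets.

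The glycolytic genes driven by HIF-1 stood high on KO replicate 1. At an unadjusted limma p under 0.05, 0 of the 18 tested differed by genotype, beside 3.57% of all genes higher in KO and 3.86% lower. KO replicate 1 was the highest array in 15, beside 25.8% of all genes. It was so by at least 1 log2 unit in 1, beside 1.38% of all genes. Their median difference was 0.12, and -0.14 without KO replicate 1. The centred mean was 0.53 on that array, -0.26 and -0.06 on the other KO arrays, against -0.13, -0.10 and 0.03 in WT. The genes of smallest p were Pkm, the pyruvate kinase gene of T cells, with a difference of 0.19, Pfkfb3, whose product makes the activator of phosphofructokinase (difference 0.28), the glycogen branching enzyme gene Gbe1 (difference 0.71) and the aldolase gene Aldoa (difference 0.15). These differences were 0.07, 0.02, 0.27 and 0.04 without KO replicate 1. Gbe1 had KO values of 10.00, 7.65 and 9.75 and WT values of 8.04, 7.66 and 9.58, so that both replicate 3 arrays and KO replicate 1 were high.

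Of 30 other reported hypoxia-induced genes, 0 passed. An unadjusted limma p under 0.05 was reached by 1 gene higher and 1 lower in KO, beside 3.57% and 3.86% of all genes. KO replicate 1 was the highest array in 21 of them, beside 25.8% of all genes, and by at least 1 log2 unit in 7, beside 1.38%. These 7, chosen after their values were seen, were Ndrg1, Car12, Ero1a, P4ha2, Wsb1, Cxcr4 and Vldlr. Car12, a carbonic anhydrase gene, measured 9.25 on KO replicate 1 and 6.10 to 7.04 on the other arrays. Ndrg1, a differentiation and stress gene, measured 12.63 there and 9.47 to 10.83 elsewhere. P4ha2, the paralogue of P4ha1, read 10.05, 6.17 and 8.43 in KO, against 8.12, 7.42 and 8.71 in WT. KO replicate 2 was thus the lowest array, as it was for Adm, Egln1, Bnip3 and P4ha1.

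All KO arrays lay above all WT arrays in 2 of these 30 genes, beside 5.86% of all genes, and below them in 3, beside 6.92% of all genes. Ppfia4, a liprin gene, was above WT on all KO arrays at 0.59 (0.65 without KO replicate 1), and at 1.91 and 1.06 on its other probe sets. Angptl4, an inhibitor of lipoprotein lipase, was below WT on all KO arrays at -0.48 (-0.58 without KO replicate 1), and its second probe set was dim and differed by 0.003. The chemokine receptor gene Cxcr4 read 11.75, 9.54 and 10.24 in KO, against 8.58, 9.29 and 9.61 in WT, a difference of 1.35 (0.73 without KO replicate 1), and its genotypes overlapped. Tfrc, the transferrin receptor gene, was at -0.52 with its brightest probe set (-0.65 without KO replicate 1). Its other probe sets were at 0.57 and 0.03, so with all arrays the sign varied between probe sets. Without KO replicate 1 these were at -0.18 and -0.42, so each Tfrc probe set was then below 0. The genotypes still overlapped on the one at -0.18.

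**Figure D5:**
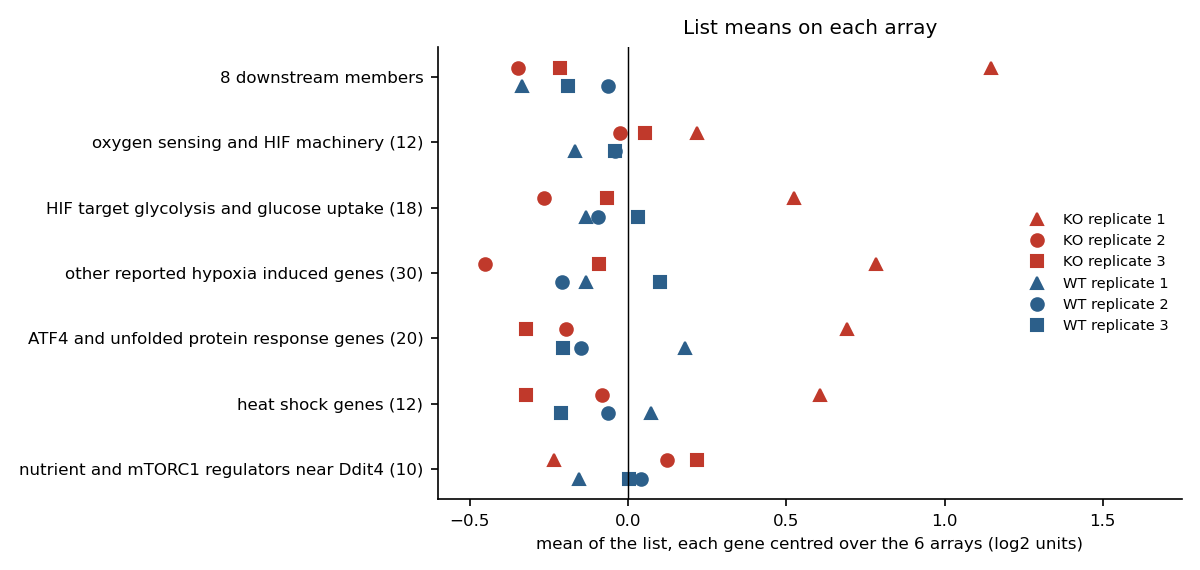
Mean of each list on each array (log2 units, each gene centred over the 6 arrays, number of genes tested in brackets), with KO arrays above WT arrays in each row. KO replicate 1 stands at 1.15 for the 8 downstream members, and above the other arrays for the glycolysis, hypoxia and ATF4 lists as well. Its heat shock mean of 0.61 holds Hspa1a and Hspa1b, and is -0.12 over the other 10 genes.

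Of stress transcripts outside the oxygen pathway, those of the ATF4 response stood high on the same array and most heat shock genes did not. The ATF4 and unfolded protein response is a pathway that also induces Ddit4 and Vegfa. Of 20 of its genes, KO replicate 1 was the highest array in 15, beside 25.8% of all genes. Their centred mean was 0.69 on KO replicate 1, -0.20 and -0.32 on the other KO arrays, against 0.18, -0.15 and -0.21 in WT. Ddit3, which encodes the stress factor CHOP, measured 11.04 on KO replicate 1 and 8.71 to 9.33 elsewhere, and was chosen after its values were seen, as was Hspa1a. Of the 20 genes, 3 had an unadjusted limma p under 0.05, all higher in KO, beside 3.57% of all genes. Their differences were 0.79 for Cebpb, 0.36 for Xbp1 and 0.65 for Ppp1r15a, and Phgdh, of serine synthesis, differed by -0.66. The 4 differences were 0.46, 0.31, 0.39 and -0.67 without KO replicate 1, where Cebpb alone of the first 3 had an unadjusted limma p under 0.05. The inducible HSP70 gene Hspa1a measured 9.72 on KO replicate 1 and 4.12 to 4.94 elsewhere, so it passed the filter through that array. Its near-identical copy Hspa1b measured 10.34 there and 5.23 to 5.80 elsewhere, and probes may not tell the copies apart. Over the whole heat shock list KO replicate 1 was highest in 3 of 12 genes, beside 25.8% of all genes, and lowest in 5, and over the 10 genes other than these copies its centred mean was -0.12. The genes of smallest p differed by -0.28 (Hspe1), -0.32 (Dnaja1), 0.38 (Bag3) and -0.66 (Hspd1), and without KO replicate 1 by -0.30, -0.22, 0.41 and -0.49. The part of these stress transcripts in the high hypoxia genes of that array was not tested.

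Regulators of mTORC1 and nutrient sensing, the pathway that the Ddit4 product inhibits, had KO replicate 1 highest in 2 of 10 genes and lowest in 2. It was highest in 25.8% of all genes. The genes of smallest p differed by 0.33 (Sesn3), -0.27 (Mtor), 0.44 (Txnip) and 0.12 (Tsc1), and without KO replicate 1 by 0.39, -0.03, 0.93 and 0.05. Txnip, which encodes an inhibitor of glucose uptake, read 8.86, 10.10 and 10.57 in KO, against 8.62, 9.60 and 9.99 in WT, so that both replicate 1 arrays were low, and without KO replicate 1 the genotypes did not overlap.

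Markers of other cells were compared because macrophages and endothelial cells also express Vegfa and Adm. Of 8 macrophage markers, 5 had a mean below that of the dimmest gene tested, and their summed linear level was 320.2, 241.4 and 323.7 in KO, against 212.9, 235.0 and 287.3 in WT. Cd68 measured 7.10 on KO replicate 1, with 6.77 on KO replicate 3 and 6.64 on WT replicate 3, while Lyz2 lay between 4.26 and 4.49 on all arrays. The 6 endothelial and stromal markers summed to 472.2 on KO replicate 1 and 243.6 to 345.6 elsewhere. Pecam1, which T cells also express, measured 8.44 on that array, while Cdh5 lay between 4.34 and 4.61. All 5 neutrophil markers had a mean below that of the dimmest gene tested. The 5 B cell markers summed to 459.8, 511.2 and 325.9 in KO, against 609.6, 590.0 and 310.4 in WT, so they varied between arrays of both genotypes. In such bulk samples fewer cells of a type and less RNA per cell cannot be told apart, and the part of these markers in the result was not tested.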

How the data were processed

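The deposited table holds log2 values that the authors made with RMA and affy (submitters' processing notes, which name no version). RMA subtracts background, brings the arrays to 1 distribution and summarises probe sets, so differences near background are understated and depth has no counterpart; the number of arrays limits the precision. Of 22690 probe sets, 64 were controls, 20380 had 1 gene symbol, 691 several and 1555 none in GEO's platform annotation. Each gene was read from its brightest probe set by mean, and the dimmest 25% of genes (3098) were set aside. All 10 members matched RefSeq (GRCm38.p6) by symbol, and the sequences come from its tables.

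Genotypes were tested in R 4.3.3 using lmFit and eBayes of limma 3.58.1 (two-sided, Benjamini-Hochberg over 9295 genes, or over 22626 probe sets without a filter). Single values were put to an exact permutation test. The code was tested on artificial data. The members and lists were chosen with earlier results of these data known. Named were all member probe sets, the 4 genes of smallest p in each pathway list, the 5 genes most correlated with Hif1a and with the mean of the 8 downstream members, and Mir155hg. Each array counts as 1 mouse, per the series description, although both replicate 3 arrays held Xist together with Y-linked transcripts. Alternatives tried were a block for the replicate number, omission of each array, median centring, a further quantile normalization, no filter or 50%, averaged probe sets, a trended robust eBayes, array weights (statmod 1.5.0), no moderation and a shorter promoter window. Counting arrays that do not overlap without KO replicate 1 was added after seeing the data. No 3' UTR sequence was used here, so miR-155 seed matches were not searched. Python 3.11.15 and matplotlib 3.10.9 drew the figures.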

Additional observations from a re-analysis of the deposited data

How the results depend on the processing

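Hif1a kept its direction under each alternative run, and passed only with array weights (0.61, limma adjusted p = 0.00961). These weights put 5.55 on KO replicate 3 and 5.04 on WT replicate 2, against 0.27 to 0.58 on the other arrays, so that fit compares little more than 1 array of each genotype. It called 3575 genes adjusted and 4711 unadjusted, 3 members adjusted and 3 unadjusted (Hif1a, Arnt and Egln3), and turned the median of the members to -0.011 and of the downstream members to -0.11, with Egln1 at -0.092, Egln3 at -0.49, Bnip3 at -0.14, Kdm3a at -0.32 and P4ha1 at -0.12. Otherwise 0 genes and 0 members passed adjusted. The cause of these shifts was not tested further. With the replicate block 0 genes passed adjusted and 918 unadjusted, and Hif1a was at 0.49 (limma adjusted p = 0.478). The deviations of same-numbered arrays correlated at -0.042, 0.64 and 0.40, and sex transcripts matched by number. Those of differently numbered arrays correlated at -0.69 to 0.39, the highest being KO replicate 1 with WT replicate 3. With so few arrays these correlations cannot decide whether the numbers pair the samples. The unadjusted count was 856 with no filter and 469 with the 50% filter, which dropped Arnt and Adm. Members with all KO arrays above WT numbered 2, but 1 under that filter or with probe sets averaged, and 3 with median centring. They numbered 4 without KO replicate 2 or without WT replicate 2. Of all genes, 5.86% were so placed over the 6 arrays and 10.5% without KO replicate 1, since fewer arrays separate more readily. The share of all genes was not counted for the other settings, so the 4 cannot be read as a gain for the members.

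Leaving out 1 array gave between 276 (without WT replicate 1) and 1542 (without KO replicate 2) genes unadjusted, with 293, 280 and 1338 without KO replicate 3, WT replicate 2 and WT replicate 3 and 457 without KO replicate 1, and 1 to 2 members. The members' median ranged from -0.14 (without KO replicate 1) to 0.54, the downstream median from -0.20 to 0.54, and Hif1a from 0.45 to 0.55. Single genes ranged from -0.21 to 2.01 (Adm), -0.27 to 0.21 (Bnip3), -0.20 to 0.41 (Egln1), -0.37 to 0.26 (Egln3), -0.081 to 0.69 (Kdm3a) and -0.20 to 0.56 (P4ha1), each lowest without KO replicate 1. Egln3 was also below 0 without WT replicate 1 (-0.0023) or 3 (-0.035), and Bnip3 without WT replicate 1 (-0.042). The further probe sets ranged from -0.28 to 0.58 (Egln1), -0.16 to 0.37 (Egln3), -0.12 to 0.71 (P4ha1) and -0.041 to 0.16 (Arnt, lowest without WT replicate 2, and -0.014 without KO replicate 1). Each member had a core also in the 250 bases before the start.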

Other observations

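The genes whose values over the 6 arrays were most like those of Hif1a were Ksr1, Pim1, Fbxw7, Ccser2 and Vamp1, with Pearson r between 0.977 and 0.991. These correlations are across the same 6 arrays that define the genotypes and are given as a description. Ksr1, a scaffold gene of MAP kinase signalling, read 8.11, 8.13 and 8.18 in KO, against 7.82, 7.81 and 7.98 in WT. Pim1, a cytokine-induced kinase gene, read 11.54, 11.50 and 11.70 in KO, against 10.87, 10.86 and 11.26 in WT. Fbxw7, which encodes the substrate adaptor of a ubiquitin ligase, read 9.48, 9.51 and 9.89 in KO, against 8.70, 8.85 and 9.01 in WT. In all 5 the KO arrays lay above the WT arrays, beside 5.86% of all genes, which largely follows from choosing them by likeness to Hif1a. The limma adjusted p of each was 0.631.

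The genes most like the mean of the 8 downstream members were Rora, Slc27a3, Acer2, Flcn and Phtf1, with Pearson r between 0.989 and 0.996, which rests on KO replicate 1. Rora, a nuclear receptor gene, read 8.64, 6.65 and 6.83 in KO, against 6.64, 6.93 and 6.97 in WT. Flcn, the folliculin gene of nutrient sensing, measured 8.63 on KO replicate 1 and 7.63 to 7.75 on the other arrays. Without KO replicate 1 their differences lay between -0.14 and 0.013.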
